A study of Mus musculus with 40 samples.

Results

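The genes described here make GABA, the main inhibitory transmitter of the adult brain, move it and respond to it through the metabotropic GABA-B receptor. They are Gad1 and Gad2 for synthesis, Slc32a1 for vesicular loading, Slc6a11 for uptake, Abat for breakdown, Gphn for the postsynaptic scaffold, and Gabbr1 and Gabbr2 for the GABA-B receptor. The members were every probe set (a group of short probes for one transcript on the array) that the array annotation assigned to these 8 genes. This gave 19 of the 45101 probe sets on the array, from 7 of the 8 genes: 2 each for Gad1, Gad2, Slc6a11 and Abat, 3 for Gphn and 4 each for Slc32a1 and Gabbr1. The annotation used here assigned no probe set to Gabbr2, which was not analysed here. None of the 19 was shared with another gene.

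The samples were Df(16)A/+ prefrontal cortex, wild-type prefrontal cortex, Df(16)A/+ hippocampus and wild-type hippocampus, with 10 arrays (Affymetrix Mouse430_2) in each group and 40 in all. All mice were male C57BL/6 littermates 8 weeks old with no treatment. Df(16)A/+ mice carry 1 copy of a deletion on chromosome 16 that models a recurrent human microdeletion, and every cell of the animal carries it. Wild-type littermates carry both copies. Of the genes described here, Abat is also on chromosome 16, Gad1, Gad2 and Slc32a1 are on chromosome 2, Slc6a11 is on chromosome 6, Gphn on chromosome 12 and Gabbr1 on chromosome 17. Values are log2 GCRMA signals, so a difference of 1 is a doubling, and differences are Df(16)A/+ minus wild type.

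GABA is made from glutamate by 2 glutamic acid decarboxylases, GAD67 (encoded by Gad1) and GAD65 (encoded by Gad2), and is loaded into synaptic vesicles by VGAT (encoded by Slc32a1). After release it is taken up by transporters such as GAT-3 (encoded by Slc6a11), which in the forebrain is mainly astrocytic, and is broken down by GABA transaminase (encoded by Abat). Gephyrin (encoded by Gphn) anchors inhibitory receptors under the postsynaptic membrane and also takes part in molybdenum cofactor synthesis. The GABA-B receptor is an obligate heterodimer in which the Gabbr1 product binds GABA and the Gabbr2 product couples to inhibitory G proteins, which open potassium channels and close calcium channels.

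Sequences upstream of Gad1, Gad2, Gphn and Gabbr1 are shown because each gene had a probe set that passed the test in at least 1 region. Each is the 250 bases before the annotated start, on the plus strand, from RefSeq on GRCm38.p6: chr2:70561879-70562128 for Gad1, chr2:22622077-22622326 for Gad2, chr12:78226405-78226654 for Gphn and chr17:37045716-37045965 for Gabbr1. Capitals mark every match on either strand to 4 motifs: the TATA box (TATAAA), the CCAAT box (CCAAT), the GC box (GGGCGG) and a half-site of the cyclic AMP response element (TGACG). No match overlapped another.
Gad1: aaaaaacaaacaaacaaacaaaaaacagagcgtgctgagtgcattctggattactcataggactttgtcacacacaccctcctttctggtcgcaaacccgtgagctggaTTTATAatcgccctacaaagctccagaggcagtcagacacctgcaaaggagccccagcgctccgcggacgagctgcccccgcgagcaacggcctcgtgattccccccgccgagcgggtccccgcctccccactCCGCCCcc
Gad2: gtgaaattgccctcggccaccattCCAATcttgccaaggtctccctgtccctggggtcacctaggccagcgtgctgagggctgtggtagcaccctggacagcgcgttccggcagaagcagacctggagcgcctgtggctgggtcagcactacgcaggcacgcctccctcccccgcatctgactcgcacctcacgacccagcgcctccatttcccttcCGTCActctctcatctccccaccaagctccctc
Gphn: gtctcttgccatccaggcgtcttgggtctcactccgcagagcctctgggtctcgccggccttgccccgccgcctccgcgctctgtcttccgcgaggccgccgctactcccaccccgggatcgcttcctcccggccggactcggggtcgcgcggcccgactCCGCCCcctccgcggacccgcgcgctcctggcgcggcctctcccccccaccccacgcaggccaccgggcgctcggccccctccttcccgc
Gabbr1: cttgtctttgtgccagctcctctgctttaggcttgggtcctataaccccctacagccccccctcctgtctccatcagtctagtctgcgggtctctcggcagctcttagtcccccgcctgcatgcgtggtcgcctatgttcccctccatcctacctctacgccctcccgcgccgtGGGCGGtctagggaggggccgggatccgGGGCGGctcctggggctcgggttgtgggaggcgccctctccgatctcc

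The GC content of these windows was 58.0% for Gad1, 64.0% for Gad2, 77.2% for Gphn and 66.0% for Gabbr1, against a median of 52.4% over the 32851 RefSeq windows of the same length. The GC box matched once upstream of Gad1 and Gphn and at 2 places upstream of Gabbr1, and 32.7% of all windows held it. The TATA box letters occurred upstream of Gad1 on the reverse strand, 141 bases before the start, and 12.4% of all windows held them. Gad2 held 1 CCAAT box (33.8% of all windows) and 1 TGACG half-site (17.8%). A match is a description of the letters and was not tested for use as a site. A window of this kind was found for 7 of the 8 genes.

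Both Gad1 probe sets and 1 of 3 tested Gabbr1 probe sets were higher in Df(16)A/+ than in wild-type prefrontal cortex, and 1 of 3 Gphn probe sets was lower. In the hippocampus 1 of 2 Gad2 probe sets, 1 of 3 tested Gabbr1 probe sets and another of the Gphn probe sets were higher. All of these were shifts of 0.11 to 0.57 on the log2 scale, with overlapping groups. None was called once hybridization run was a term in the fit. In such bulk tissue fewer cells of a type and less RNA per cell cannot be told apart.

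Probe sets above 4 (log2) on at least 10 of the 20 arrays of a region were tested with limma. A call is an adjusted p below 0.05, by Benjamini-Hochberg over all probe sets tested. In each region 13 of the 19 probe sets passed the filter on low values. The 6 that did not were 1 each of Abat, Gabbr1 and Slc6a11 and 3 of Slc32a1, with prefrontal group means no higher than 2.95 and hippocampal ones no higher than 2.99. Of the 13 tested prefrontal values 4 were called, 3 higher and 1 lower, where limma called 18.5% of all probe sets tested, 5.94% higher and 12.5% lower. Of the 13 hippocampal ones 3 were called, all higher, against 6.47% of all probe sets, 5.19% higher and 1.28% lower. The median prefrontal difference of the 13 was 0.04, against -0.02 over all probe sets, and the hippocampal one 0.10, against 0.02. The median size without sign was 0.08 for the 13 and 0.08 for all prefrontal probe sets, and 0.11 for the 13 and 0.09 for all hippocampal ones.

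**Figure D1:**
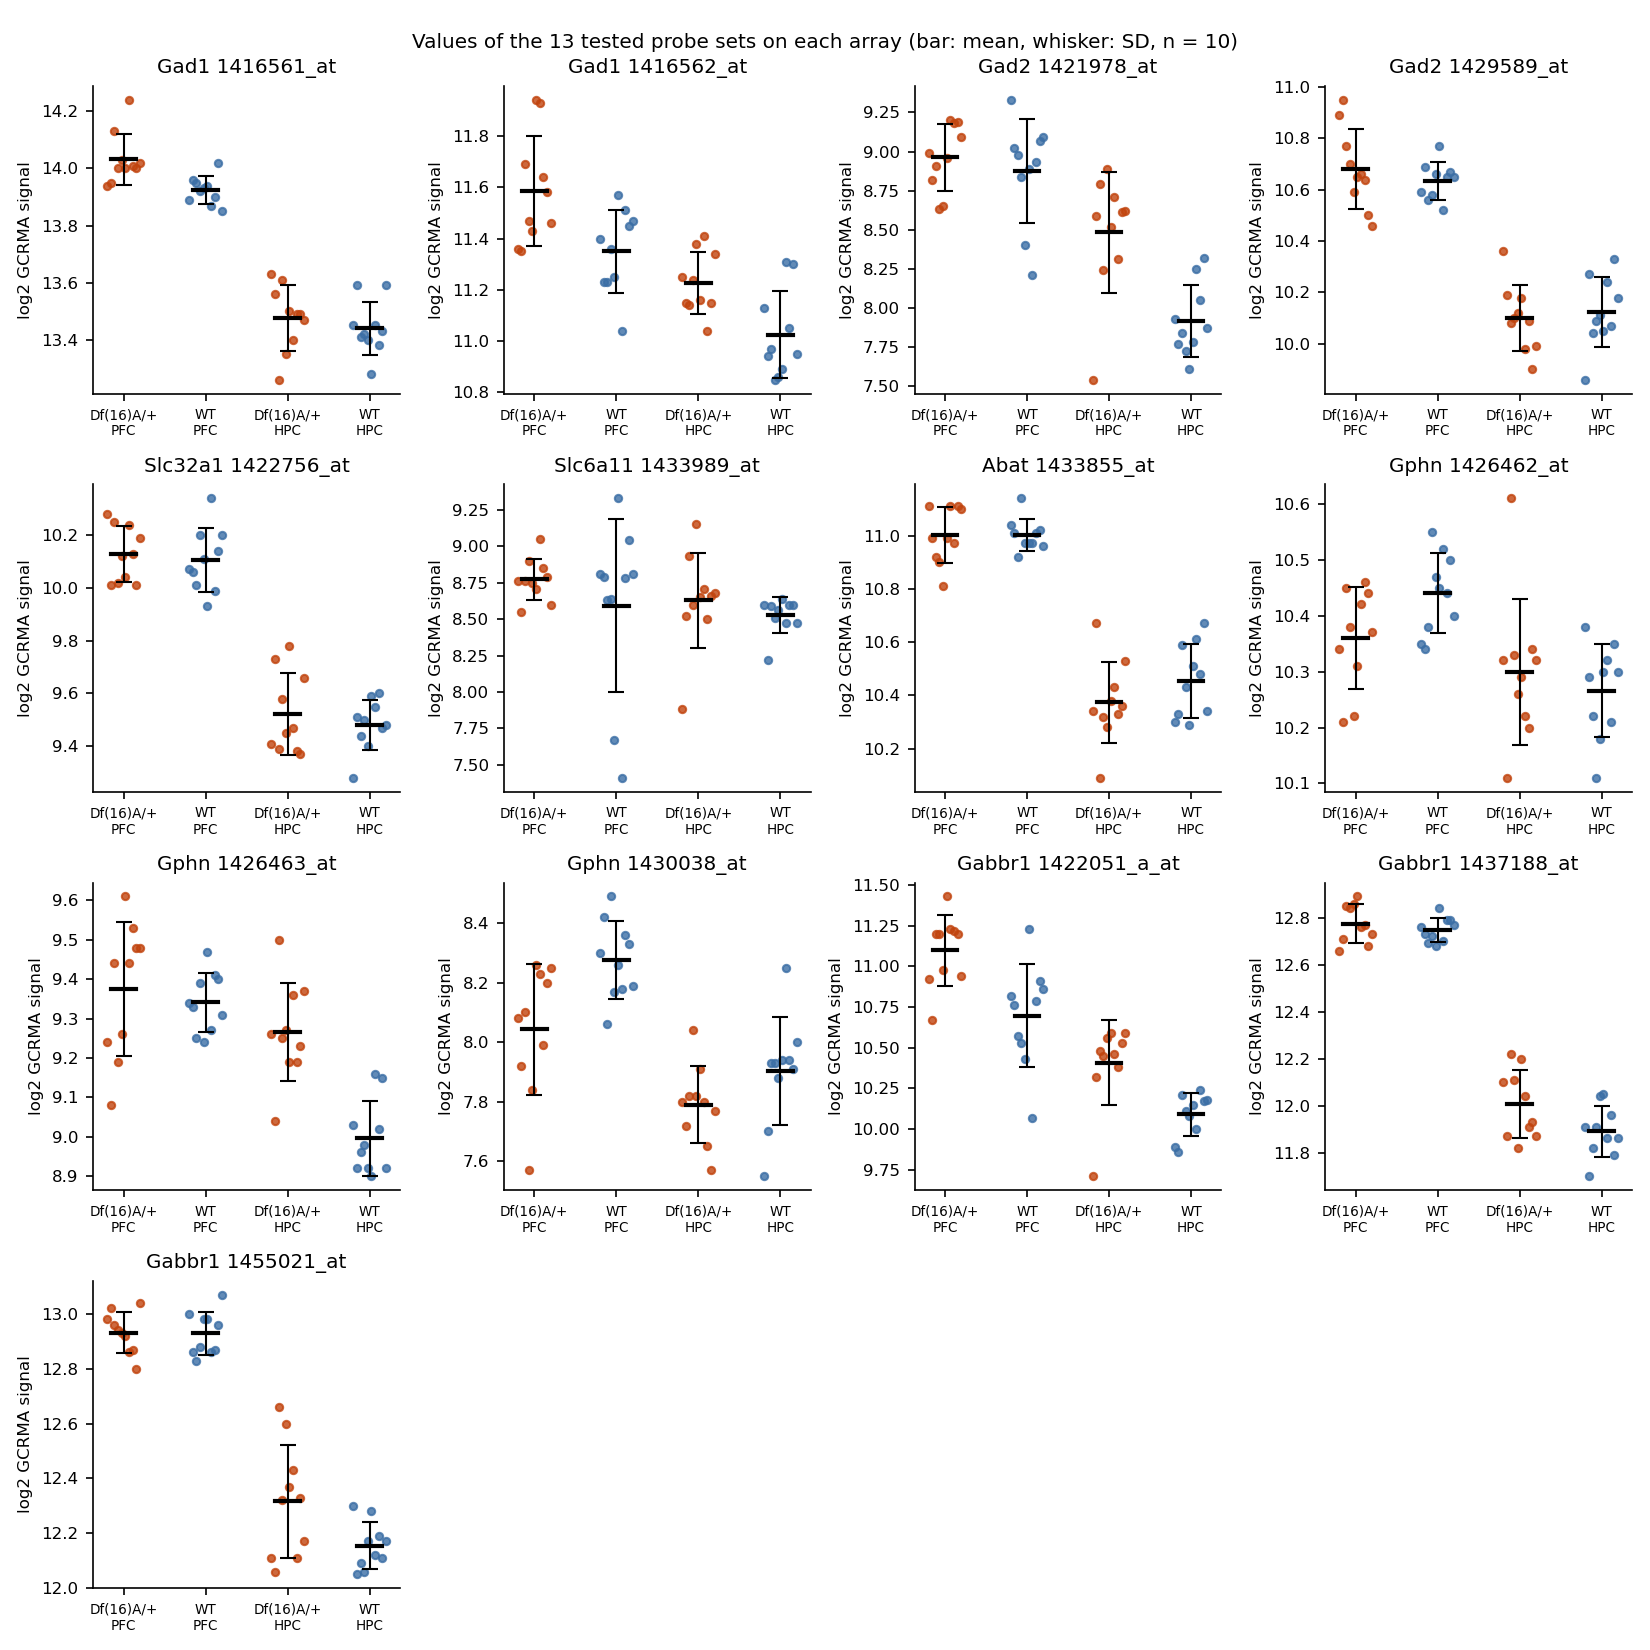
Log2 GCRMA signal of the 13 tested probe sets on every array, with 1 panel per probe set and the groups in the order Df(16)A/+ and wild type for the prefrontal cortex (PFC), then for the hippocampus (HPC). Black bars are means with SD whiskers (n = 10 arrays), axes do not start at 0, and the genotypes overlap in every panel. The regions are not on a common scale.

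Gad1, the enzyme that supplies most GABA, was read by 2 probe sets that both rose in the prefrontal cortex. On 1416561_at the Df(16)A/+ prefrontal arrays ran from 13.94 to 14.24 with a median of 14.01, and the wild-type arrays from 13.85 to 14.02 with a median of 13.93. All 10 Df(16)A/+ arrays lay above the wild-type mean and 3 lay above every wild-type array. The difference was 0.11 ± 0.04 (SE), or 107.7% of wild type, with a limma adjusted p of 0.038. On 1416562_at the Df(16)A/+ arrays ran from 11.35 to 11.94 (median 11.53) and the wild-type arrays from 11.04 to 11.57 (median 11.38). On this probe set 5 Df(16)A/+ arrays lay above every wild-type array, and the difference was 0.23 ± 0.08 (limma adjusted p = 0.049).

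In the hippocampus neither Gad1 probe set was called. On 1416562_at the Df(16)A/+ hippocampal arrays ran from 11.04 to 11.41 (median 11.20) and the wild-type arrays from 10.85 to 11.31 (median 10.96). All 10 Df(16)A/+ arrays lay above the wild-type mean, and the difference of 0.20 ± 0.07 had a limma adjusted p of 0.069. On 1416561_at the difference was 0.04 ± 0.05 (limma adjusted p = 0.69, 95% interval -0.07 to 0.14).

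Gad2, which makes the synaptic terminal pool of GABA, had the largest difference among the members, on 1 of its 2 probe sets and in the hippocampus. On 1421978_at the Df(16)A/+ hippocampal arrays ran from 7.54 to 8.89 with a median of 8.60, and the wild-type arrays from 7.61 to 8.32 with a median of 7.86. Of the Df(16)A/+ arrays 7 lay above every wild-type array and 1, replicate 1, lay below every wild-type array. The difference was 0.57 ± 0.13, a 1.48-fold signal, with a limma adjusted p of 0.016. Without replicate 1 of the Df(16)A/+ hippocampal arrays it was 0.67 (limma adjusted p = 0.00031). Replicate 1 was 1 of the 2 Df(16)A/+ arrays in hybridization run 2, the only hippocampal run with both genotypes.

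The other Gad2 probe set, 1429589_at, gave -0.03 ± 0.06 in the hippocampus (limma adjusted p = 0.81, 95% interval -0.15 to 0.10), and the difference between the probe sets was not tested. Prefrontal 1421978_at gave 0.08 ± 0.12 (limma adjusted p = 0.65), with Df(16)A/+ arrays between 8.63 and 9.20 and wild-type arrays between 8.21 and 9.33. There 1429589_at gave 0.05 ± 0.05 (limma adjusted p = 0.56).

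Slc32a1, the vesicular transporter, did not pass in either region. Its 1 tested probe set, 1422756_at, ran from 10.01 to 10.28 on Df(16)A/+ and from 9.93 to 10.34 on wild-type prefrontal arrays, with a difference of 0.03 ± 0.05 (95% interval -0.08 to 0.13). On hippocampal arrays it ran from 9.37 to 9.78 in Df(16)A/+ and from 9.28 to 9.60 in wild type, with a difference of 0.04 ± 0.06 (95% interval -0.08 to 0.16). The limma adjusted p was 0.76 for the prefrontal and 0.70 for the hippocampal difference.

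Slc6a11, the astrocytic GABA transporter, did not pass in either region. On 1433989_at the Df(16)A/+ prefrontal arrays ran from 8.55 to 9.05 (median 8.76) and the wild-type arrays from 7.41 to 9.33 (median 8.79). The wild-type spread came from replicates 5 and 7, at 7.67 and 7.41. The difference was 0.18 ± 0.18 (limma adjusted p = 0.51) with all arrays and -0.08 ± 0.08 (adjusted p = 0.55) without those 2 arrays, a fit chosen after their values were seen. In the hippocampus the Df(16)A/+ arrays ran from 7.88 to 9.15 (median 8.65) and the wild-type arrays from 8.22 to 8.64 (median 8.58), with a difference of 0.10 ± 0.10 (limma adjusted p = 0.58).

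Abat, the transaminase that starts GABA breakdown, did not pass in either region. On 1433855_at the Df(16)A/+ prefrontal arrays ran from 10.81 to 11.11 and the wild-type arrays from 10.92 to 11.14, with a difference of 0.00 ± 0.04 (limma adjusted p = 0.99, 95% interval -0.08 to 0.08). In the hippocampus they ran from 10.09 to 10.67 in Df(16)A/+ and from 10.29 to 10.67 in wild type, with a difference of -0.08 ± 0.07 (limma adjusted p = 0.45).

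Gphn, the scaffold of inhibitory synapses, was called on a different probe set in each region and in opposite directions. On 1430038_at the Df(16)A/+ prefrontal arrays ran from 7.57 to 8.26 with a median of 8.09, and the wild-type arrays from 8.06 to 8.49 with a median of 8.28. No Df(16)A/+ array lay above the wild-type mean and 4 lay below every wild-type array. This probe set fell by 0.23 ± 0.08 in Df(16)A/+ mice, to 85.05% of wild type (limma adjusted p = 0.040). On 1426463_at the Df(16)A/+ hippocampal arrays ran from 9.04 to 9.50 with a median of 9.25, and the wild-type arrays from 8.90 to 9.16 with a median of 8.97. Here 9 Df(16)A/+ arrays lay above every wild-type array, and the difference was 0.27 ± 0.05 (limma adjusted p = 0.0044).

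Neither of these Gphn probe sets was called in the other region. Hippocampal 1430038_at had a difference of -0.11 ± 0.07 (limma adjusted p = 0.34), and prefrontal 1426463_at had 0.04 ± 0.06 (limma adjusted p = 0.71). The remaining one, 1426462_at, had -0.08 ± 0.04 (limma adjusted p = 0.15) on prefrontal and 0.04 ± 0.05 (limma adjusted p = 0.70) on hippocampal arrays.

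Gabbr1, the GABA-binding subunit of the GABA-B receptor, was the 1 gene with the same probe set called in both regions. This was 1422051_a_at, whose suffix marks probes shared by several transcripts of the gene. Its Df(16)A/+ prefrontal arrays ran from 10.67 to 11.43 with a median of 11.20, and the wild-type arrays from 10.07 to 11.23 with a median of 10.78. The ranges overlapped widely, with 1 Df(16)A/+ array above every wild-type array and 9 above the wild-type mean. The difference was 0.40 ± 0.11, or 132% of wild type, with a limma adjusted p of 0.019. Without wild-type replicates 5 and 7 (10.43 and 10.07) it was 0.29 ± 0.10 (limma adjusted p = 0.055).

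In the hippocampus the Df(16)A/+ arrays for 1422051_a_at ran from 9.71 to 10.59 with a median of 10.47, and the wild-type arrays from 9.86 to 10.24 with a median of 10.13. Of the Df(16)A/+ arrays 9 lay above every wild-type array and replicate 1 lay below every one. The difference was 0.32 ± 0.09 (limma adjusted p = 0.037), and 0.39 (limma adjusted p = 0.00026) without that array. That array was 1 of the 2 Df(16)A/+ arrays in hybridization run 2, the only hippocampal run with both genotypes. Over the 20 fits that each left out 1 array, the call was kept in 6 (limma adjusted p up to 0.072). The 2 other tested Gabbr1 probe sets, 1437188_at and 1455021_at, were not called. They had 0.03 ± 0.03 and 0.00 ± 0.04 in the prefrontal cortex (limma adjusted p = 0.59 and 0.96), and 0.12 ± 0.06 and 0.16 ± 0.07 in the hippocampus (limma adjusted p = 0.22 and 0.16).

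**Figure D2:**
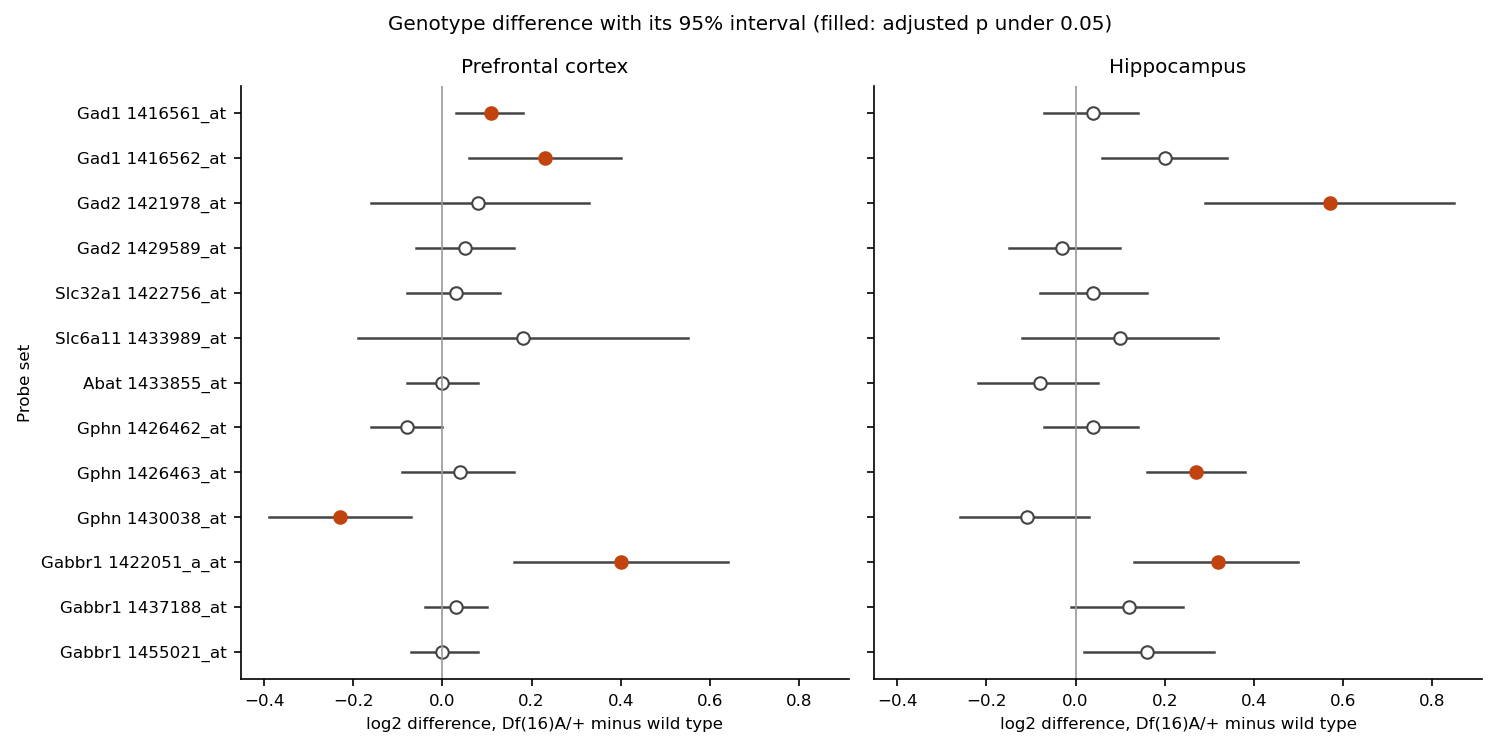
Genotype difference (log2, Df(16)A/+ minus wild type) of each tested probe set with its 95% interval, for the prefrontal cortex and the hippocampus. Filled points were called (limma adjusted p under 0.05). They are 4 in the prefrontal cortex, between -0.23 and 0.40, and 3 in the hippocampus, between 0.27 and 0.57.

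Whether a genotype difference differed between regions was tested as the hippocampal difference minus the prefrontal one over all 40 arrays. Limma called none of the 13 probe sets, against 2.53% of all probe sets tested, and 2 had an unadjusted p under 0.05, against 4693 of 22586 probe sets (20.8%). These were Gad2 1421978_at (0.48 ± 0.18, unadjusted p = 0.012, adjusted p = 0.12) and Gphn 1426463_at (0.24 ± 0.08, unadjusted p = 0.0043, adjusted p = 0.081). For Gabbr1 1422051_a_at the regions differed by -0.08, with a 95% interval of -0.38 to 0.22 (limma adjusted p = 0.77). With hybridization run as a term in the fit this Gabbr1 value was -0.39 (limma adjusted p = 0.56). Gad2 1421978_at then had 0.10 and Gphn 1426463_at 0.19 (limma adjusted p = 0.95 and 0.60). The regions may have been normalized apart, since the 95th percentile of prefrontal arrays lay between 11.60 and 11.72 and that of hippocampal arrays between 10.94 and 11.08, so no level is compared between regions.

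The genotypes were not spread evenly over hybridization runs and chip lots, as the deposited array records give them. Prefrontal arrays were hybridized in run 3 (1 Df(16)A/+ and 3 wild type), run 4 (5 Df(16)A/+ and 7 wild type) and run 5 (4 Df(16)A/+ and 0 wild type). Hippocampal arrays were hybridized in run 1 (0 Df(16)A/+ and 1 wild type), run 2 (2 Df(16)A/+ and 9 wild type) and run 3 (8 Df(16)A/+ and 0 wild type). Chip lot 1 held 10 Df(16)A/+ and 4 wild-type prefrontal arrays and 7 Df(16)A/+ and 9 wild-type hippocampal arrays. Every other lot held 1 genotype within a region.

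With run as a block limma called none of the 13 in either region. Over all probe sets it then called 9.25% of prefrontal and 0.156% of hippocampal ones. Prefrontal Gabbr1 1422051_a_at had 0.32 ± 0.14 (adjusted p = 0.14) with the run block, Gad1 1416561_at 0.08 ± 0.04 (adjusted p = 0.21), Gad1 1416562_at 0.12 ± 0.09 (adjusted p = 0.39) and Gphn 1430038_at -0.25 ± 0.09 (adjusted p = 0.095). All 4 kept their sign, and the sizes of 3 stayed within 1.5 times of the unblocked ones, with Gad1 1416562_at the exception. With run and lot together as blocks, Gabbr1 1422051_a_at had 0.20 ± 0.21 and Gphn 1430038_at -0.12 ± 0.14 (limma adjusted p = 0.68 and 0.72), while Gad1 1416561_at had 0.12 ± 0.06 and Gad1 1416562_at 0.09 ± 0.14 (limma adjusted p = 0.33 and 0.79). Gad1 1416561_at alone then stayed within 1.5 times of its unblocked size. Within run 4, the largest mixed prefrontal run, Gabbr1 1422051_a_at averaged 11.04 in 5 Df(16)A/+ and 10.69 in 7 wild-type arrays, and Gphn 1430038_at averaged 7.97 and 8.28 (limma adjusted p = 0.25 and 0.093). Gad1 1416562_at averaged 11.49 in Df(16)A/+ and 11.38 in wild type there, and 11.73 in the 4 Df(16)A/+ arrays of run 5.

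In the hippocampus the run block changed the values more. Gad2 1421978_at had 0.20 ± 0.20 with it, Gphn 1426463_at 0.17 ± 0.08 and Gabbr1 1422051_a_at -0.07 ± 0.12, a reversed sign (limma adjusted p = 1, 0.88 and 1). Within run 2 the Df(16)A/+ arrays had 7.54 and 8.59 for Gad2 1421978_at, and the 9 wild-type arrays ran from 7.61 to 8.25. The 8 Df(16)A/+ arrays of run 3 ran from 8.24 to 8.89. For Gabbr1 1422051_a_at the Df(16)A/+ arrays of run 2 had 9.71 and 10.32, the wild-type arrays of that run 9.86 to 10.24, and the Df(16)A/+ arrays of run 3 10.38 to 10.59. Genotype and run cannot be told apart for the hippocampal arrays of run 3, where no wild-type hippocampal array was hybridized.

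**Figure D3:**
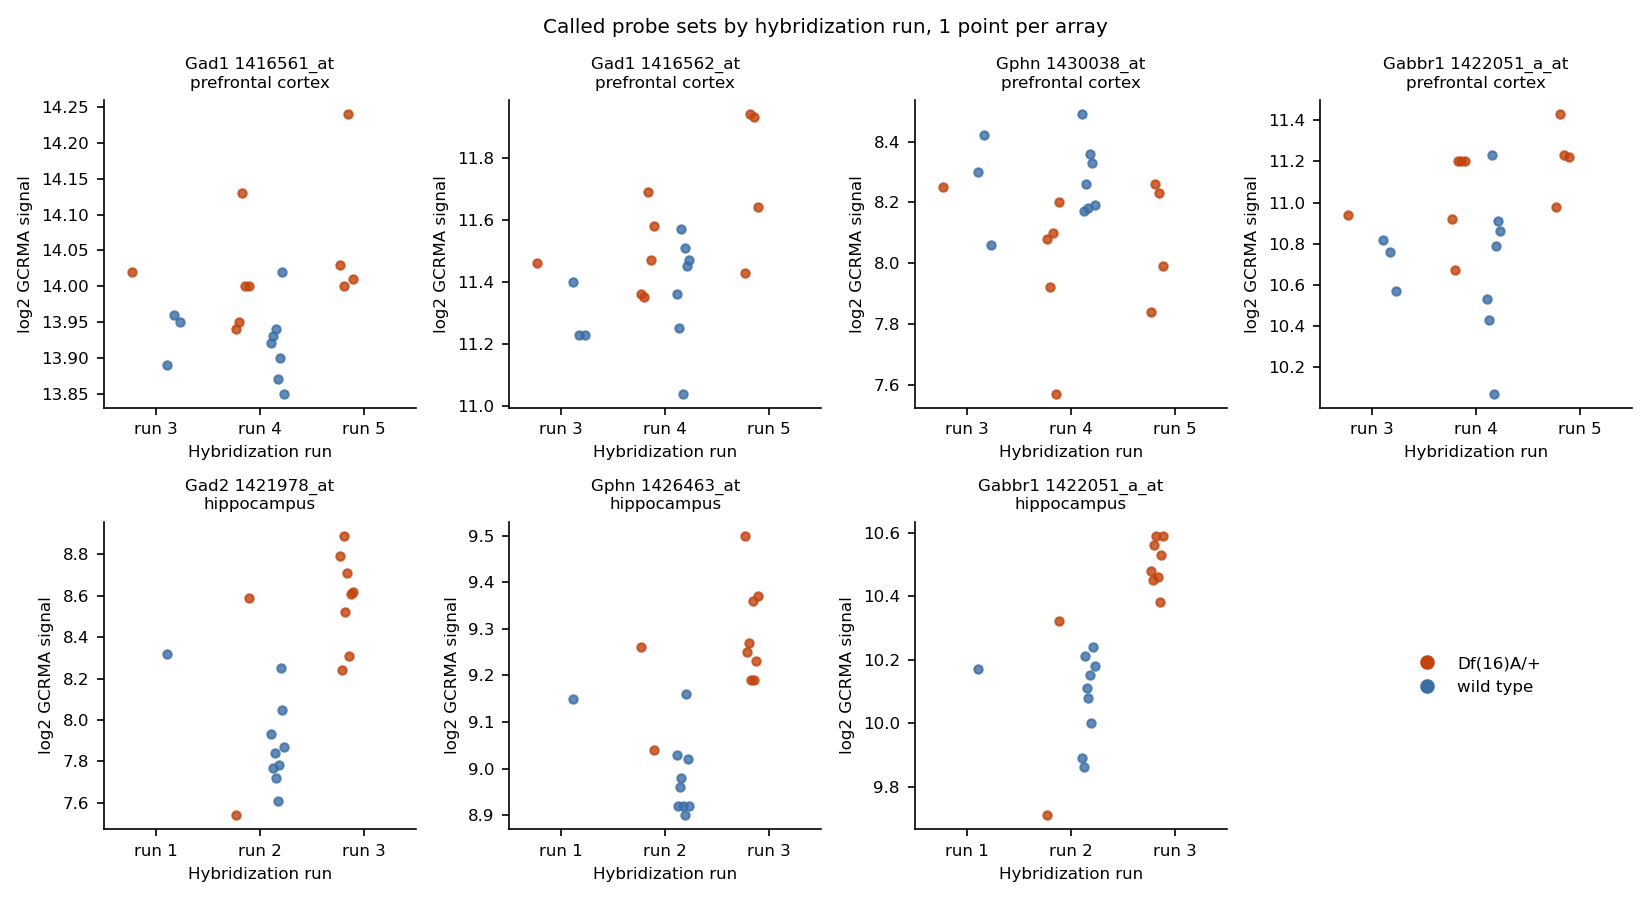
Log2 GCRMA signal of the 7 called combinations of probe set and region by hybridization run, 1 point per array, with Df(16)A/+ to the left of wild type within a run. In the hippocampus the 8 Df(16)A/+ arrays of run 3 have no wild-type array beside them, and in run 2 the 2 Df(16)A/+ arrays straddle the range of the wild-type arrays for Gad2 (7.61 to 8.25) and Gabbr1 (9.86 to 10.24).

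With chip lot as a block Gphn 1426463_at was called in the hippocampus (0.24 ± 0.05, limma adjusted p = 0.022), where 2.06% of all probe sets were. Besides the fit within lot 1, no other batch fit called a member probe set. Gad2 1421978_at then had 0.48 ± 0.13 (limma adjusted p = 0.066). No prefrontal member was called with the lot block, where 4.55% of all probe sets were. With both blocks no member was called in either region, where 2.1% of prefrontal and 0.18% of hippocampal probe sets were. Within single batches the members called were 0 in prefrontal run 3 (0.00462% of all probe sets), 0 in prefrontal run 4 (2.36%), 0 in prefrontal lot 1 (1.52%), 0 in hippocampal run 2 (0.147%) and 1 in hippocampal lot 1 (1.88%). The other scalings gave 3 prefrontal and 3 hippocampal calls after quantile normalization (18.2% and 7.14% of all probe sets), and 2 and 4 after median centring (17.2% and 6.21%). With no filter on low values 2 prefrontal and 2 hippocampal members were called (6.94% and 1.8%). With the lot block prefrontal Gabbr1 1422051_a_at had 0.34 ± 0.15 (limma adjusted p = 0.19) and Gphn 1430038_at -0.20 ± 0.10 (limma adjusted p = 0.26).

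**Figure D4:**
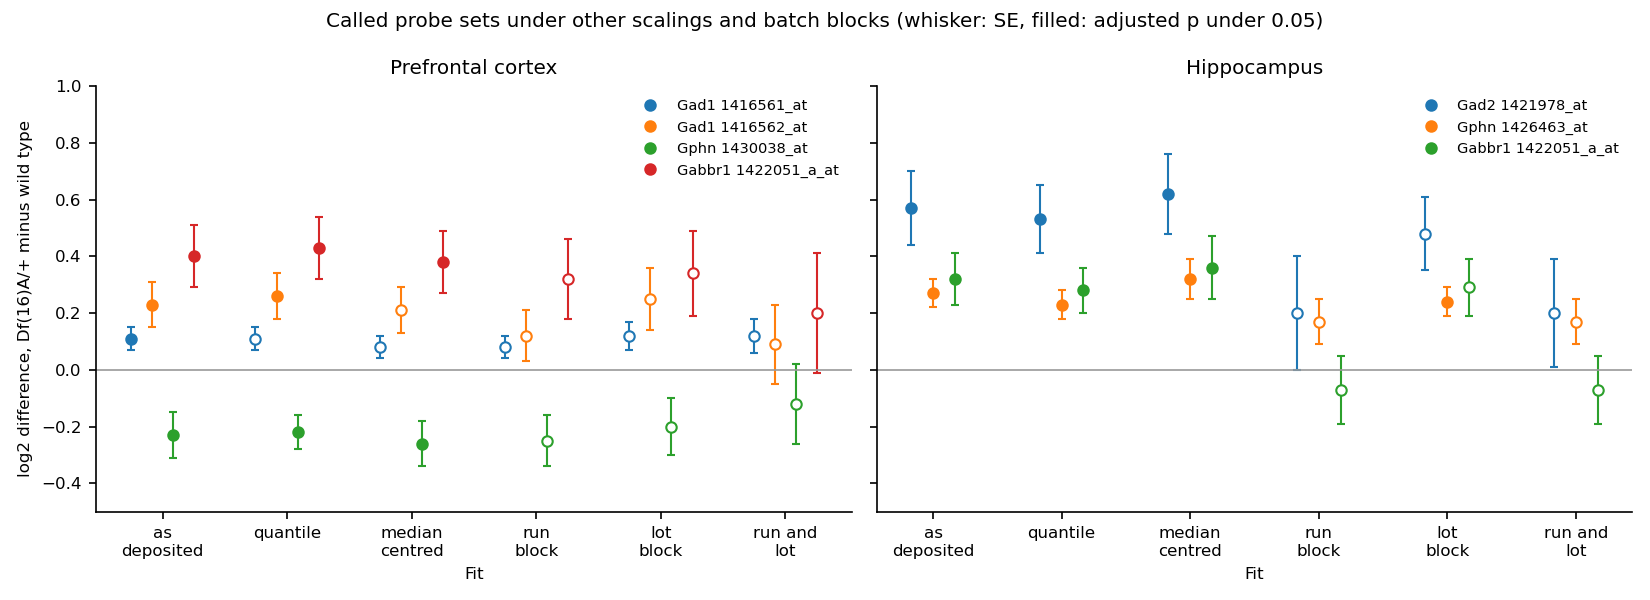
Genotype difference (log2, Df(16)A/+ minus wild type) of the called probe sets as deposited, after quantile normalization or median centring, and with run, lot or both as blocks. Whiskers are SE and filled points have a limma adjusted p under 0.05. The 3 hippocampal differences of 0.27 to 0.57 are -0.07 to 0.20 with the run block.

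The genotype labels and the tissue were checked on genes outside the GABA system. The deleted genes Dgcr8, Ranbp1 and Zdhhc8 had 60.3%, 42.7% and 39.0% of the wild-type signal on prefrontal arrays and 61.9%, 51.1% and 48.5% on hippocampal arrays. Of 18 interneuron markers, 15 were tested in the prefrontal cortex, where Pvalb fell by 0.25, and 14 in the hippocampus, where the neuropeptide gene Npy and the reelin gene Reln each rose by 0.26. The mean level of the interneuron markers per array was 9.01 to 9.30 in Df(16)A/+ and 8.99 to 9.14 in wild-type prefrontal arrays, and 8.41 to 8.71 in Df(16)A/+ and 8.44 to 8.54 in wild-type hippocampal arrays. Of 12 astrocyte markers, which bear on Slc6a11, Slc1a3 and Slc1a2 rose by 0.24 and 0.15 and Ntsr2 fell by 0.23 in the prefrontal cortex, and none passed in the hippocampus. Of 11 striatal markers 6 were tested in the prefrontal cortex, where Ppp1r1b rose by 0.45 and Penk fell by 0.17, while Drd2 and Adora2a were below the filter. The beta-actin 3' minus 5' difference, a sign of RNA integrity, had medians of 1.25 and 1.25 in Df(16)A/+ and wild-type prefrontal arrays. Its medians in hippocampal arrays were 1.27 and 1.31. It ran from 1.11 to 1.35 in Df(16)A/+ and from 1.12 to 1.39 in wild-type prefrontal arrays. In hippocampal arrays it ran from 1.16 to 1.38 in Df(16)A/+ and from 1.18 to 1.65 in wild type.

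Some markers of the other cell types were also called. Among excitatory markers Slc17a7, the vesicular glutamate transporter, rose by 0.32 on prefrontal and 0.38 on hippocampal arrays. Nrgn rose by 0.23 and Emx1 fell by 0.28 on prefrontal arrays, and Neurod2 rose by 0.25 on hippocampal arrays. The median over the tested excitatory markers was -0.01 on prefrontal and 0.22 on hippocampal arrays. Among oligodendrocyte markers Opalin fell by 0.45 on prefrontal and 0.49 on hippocampal arrays, and Aspa and Cnp fell by 0.33 and 0.17 on prefrontal arrays. The median over the tested oligodendrocyte markers was -0.1 in both regions, and uncalled Mobp had 0.25 on prefrontal arrays (limma adjusted p = 0.14). Of the microglial complement genes, C1qa fell by 0.29 on prefrontal arrays and C1qb by 0.43 on hippocampal arrays. Each was the 1 call among 9 tested microglial markers of its region. The median difference of these markers was -0.1 on prefrontal and 0.05 on hippocampal arrays. Of 8 tested activity-regulated genes, only Npas4 and Fos were called on prefrontal arrays, where they fell by 1.01 and 0.90. None was called on hippocampal arrays, where Npas4 had -0.76 and Fos -0.57 (limma adjusted p = 0.12 and 0.20). The median over these genes was -0.39 on prefrontal and -0.38 on hippocampal arrays, and prefrontal Egr1 had -0.04. Over all marker lists 5 of 72 tested genes were called higher and 10 lower on prefrontal arrays, and 4 of 76 higher and 2 lower on hippocampal arrays. Over all genes limma called 3.27% higher and 15.7% lower on prefrontal arrays (19% in all). On hippocampal arrays it called 2.11% of all genes higher and 1.55% lower (3.66% in all). With the run block 9 of the 15 prefrontal markers were still called (Slc17a7, Nrgn, Slc1a3, Slc1a2, Opalin, Cnp, Ppp1r1b, Npas4 and Fos), and Pvalb, Ntsr2, Penk, Emx1, Aspa and C1qa were not (limma adjusted p = 0.11, 0.072, 0.058, 0.057, 0.057 and 0.17). None of the 6 hippocampal markers was called with it, Npy having 0.21 (limma adjusted p = 0.85) and Reln 0.22 (limma adjusted p = 0.92). With run and lot blocks together, Slc1a3 and Ppp1r1b alone among the 21 calls were past the threshold (limma adjusted p = 0.047 and 0.044). The part of these cell types in the GABA genes was not tested.

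Other genes of the pathway were read from lists of 45 genes, of which 41 were on the array and 33 passed the filter in each region, with 1 probe set per gene. On prefrontal arrays 3 of 33 fell and none rose (median -0.01), where limma called 19% of all genes, 3.27% higher and 15.7% lower. In the hippocampus 1 rose and none fell (median 0.04), against 3.66% of all genes, 2.11% higher and 1.55% lower.

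The prefrontal falls were in Slc38a3, Mocs2 and Kcnj3. Slc38a3, a glutamine transporter of astrocytes, averaged 8.52 ± 0.18 in Df(16)A/+ and 8.73 ± 0.12 in wild type (SD), with a difference of -0.22 ± 0.07 (SE, limma adjusted p = 0.026). Mocs2, which like gephyrin acts in molybdenum cofactor synthesis, averaged 10.98 ± 0.07 and 11.09 ± 0.05 (SD), with -0.11 ± 0.03 (SE, limma adjusted p = 0.014). Kcnj3, the potassium channel subunit GIRK1 that GABA-B receptors open, averaged 11.38 ± 0.10 and 11.53 ± 0.08 (SD), with -0.15 ± 0.04 (SE, limma adjusted p = 0.020). Mocs2 and Kcnj3 were also called with the run block (-0.12 and -0.16, limma adjusted p = 0.045 and 0.046), and Slc38a3 was not (-0.18, limma adjusted p = 0.15). With run and lot blocks together none of the 3 was called (limma adjusted p = 0.14 for Mocs2, 0.26 for Kcnj3 and 0.30 for Slc38a3). No Df(16)A/+ array lay above the wild-type mean for Mocs2 or Kcnj3.

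In the hippocampus Pianp, whose product binds the GABA-B receptor, rose by 0.37 ± 0.08 (limma adjusted p = 0.0085), with 9.67 ± 0.20 in Df(16)A/+ and 9.30 ± 0.15 in wild type (SD). With the run block it had 0.05 (limma adjusted p = 1). Kcnj3 had -0.17 ± 0.06 there (limma adjusted p = 0.10), and Mocs2 0.00 ± 0.04.

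By group, neither of the plasma membrane GABA transporter genes Slc6a12 and Slc6a13 was tested in either region. Of the enzymes after GABA transaminase Aldh5a1 and Akr7a5 had 0.08 and -0.14 in the prefrontal cortex and 0.10 and -0.08 in the hippocampus, with none called. In glutamate and glutamine supply 1 of 4 tested fell in the prefrontal cortex, where Slc38a2, another glutamine transporter, had -0.15. None passed in the hippocampus, where Slc38a1 had 0.14 and Slc38a3 -0.21. In the inhibitory postsynapse 1 of 8 fell in the prefrontal cortex, where Lhfpl4 had -0.09, and none passed in the hippocampus, where Nlgn2 (neuroligin 2) had 0.15 and Gabarapl1 -0.10.

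Of 5 tested auxiliary and binding proteins of the GABA-B receptor 1 rose, in the hippocampus. Kctd8 and App had 0.32 and 0.05 in the prefrontal cortex and Ajap1 -0.08 in the hippocampus, none called. Of 9 GABA-B effectors 1 fell in the prefrontal cortex, where Gnao1, an inhibitory G protein subunit, had 0.06 (limma adjusted p = 0.069). In the hippocampus Rgs7 had 0.15 and Gnao1 0.16 (limma adjusted p = 0.079 each). None of 5 chloride transport genes passed. Slc12a2 and Stk39 had -0.12 and -0.08 in the prefrontal cortex, and Wnk1 and Slc12a5 -0.07 and 0.08 in the hippocampus.

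How the members moved together between arrays of the same genotype was measured with 1 probe set per gene, after the genotype mean was subtracted, over the 20 arrays of a region. The probe set was the one with the highest mean, 1416561_at for Gad1, 1429589_at for Gad2, 1426462_at for Gphn and 1455021_at for Gabbr1 in both regions, so the called probe sets of Gad2, Gphn and Gabbr1 were not the ones used. These correlations describe arrays that share runs and a normalization. Of 21 pairs in the prefrontal cortex none passed a permutation test after adjustment, with Pearson's r from -0.44 to 0.40. In the hippocampus 6 of 21 passed. The most negative pair was Gad1 and Slc6a11, with r = -0.75 (permutation p = 7e-05, adjusted p = 0.0015) and Spearman's rho = -0.87 (adjusted p = 0.00021). It had the same r of -0.75 without the 2 arrays farthest from the median for Gad1. Here and below such arrays were chosen on the first-named gene or probe set alone, so arrays extreme for the other could stay in. Slc6a11 and Gabbr1 rose and fell together, with r = 0.74 (permutation adjusted p = 0.0018), rho = 0.78 (adjusted p = 0.00094) and r = 0.74 without 2 arrays. Within runs these pairs had r of -0.68 and 0.62.

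Gad1 and Gabbr1 had r = -0.67 (permutation adjusted p = 0.0095) and rho = -0.59 (adjusted p = 0.049), with r of -0.52 without 2 arrays and -0.59 within runs. Slc32a1 and Abat had r = 0.56 (permutation adjusted p = 0.048) and rho = 0.56 (adjusted p = 0.063), with r of 0.52 without 2 arrays. The pairs of Abat with Gabbr1 (r = -0.54) and of Gphn with Gabbr1 (r = 0.56) rested on the 2 arrays farthest for Abat and for Gphn. Without those arrays r was -0.22 and 0.13. The enzymes Gad1 and Gad2 had r of 0.42 (permutation adjusted p = 0.16) in the hippocampus and -0.09 (adjusted p = 0.77) in the prefrontal cortex.

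**Figure D5:**
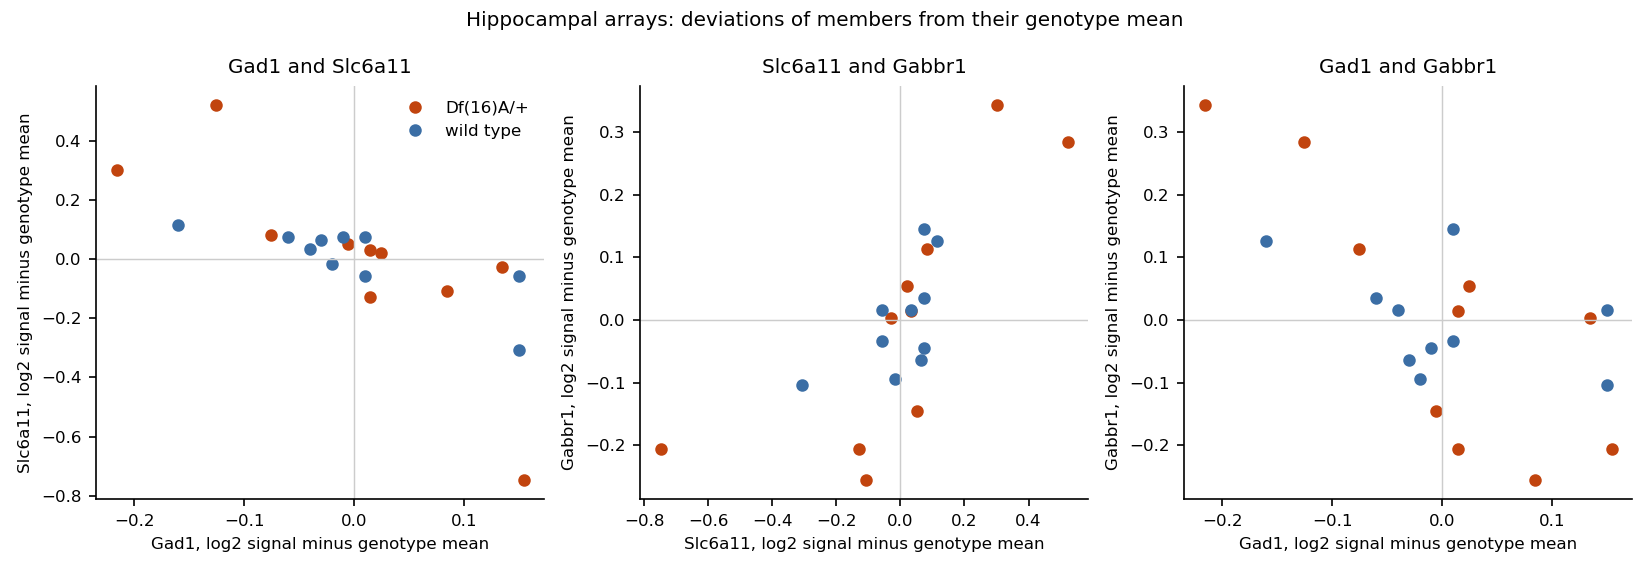
Deviations of the hippocampal arrays from their genotype mean (log2 signal) for 3 pairs of members, with 1 point per array and 20 arrays per panel. The probe sets are 1416561_at for Gad1, 1433989_at for Slc6a11 and 1455021_at for Gabbr1. The other Gad1 and Gabbr1 probe sets were not tried. Gad1 runs against Slc6a11 (r = -0.75) and against Gabbr1 (r = -0.67), and Slc6a11 runs with Gabbr1 (r = 0.74), with Df(16)A/+ arrays at the ends of the Slc6a11 range.

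Probe sets of a gene were compared in the same way, over 8 pairs a region. Among prefrontal pairs 2 passed: Gabbr1 1422051_a_at with 1437188_at (r = 0.64, rho = 0.72, permutation adjusted p = 0.0075) and Gphn 1426463_at with 1430038_at (r = 0.69, rho = 0.68, permutation adjusted p = 0.0071). Without the 2 farthest arrays they had r of 0.65 and 0.69. The Gad1 probe sets had r of 0.51 (permutation adjusted p = 0.055) over prefrontal and -0.05 over hippocampal arrays, and the Gad2 probe sets -0.06 and -0.23. In the hippocampus Gphn 1426462_at with 1426463_at passed (r = 0.67, permutation adjusted p = 0.016) but had r = 0.29 without 2 arrays.

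Array measures moved with 2 members in the prefrontal cortex. Slc6a11 ran against the beta-actin 3' minus 5' difference (r = -0.61, rho = -0.65, permutation adjusted p = 0.027, r = -0.56 without 2 arrays). Gabbr1, on its uncalled probe set 1455021_at, ran against the array median (r = -0.75, rho = -0.67, permutation adjusted p = 0.0017, r = -0.62 without 2 arrays). The called Gabbr1 1422051_a_at had r of 0.04 with 1455021_at on prefrontal arrays and was not itself compared with the array median. None of the 14 such relations passed in the hippocampus. With the actin difference as a covariate, limma called the same 4 prefrontal probe sets, against 19.8% of all probe sets, and Gabbr1 1422051_a_at had 0.37 ± 0.07 (adjusted p = 0.0015). On hippocampal arrays it then called 2 of the 3, against 2.99% of all probe sets, and Gabbr1 1422051_a_at had 0.28 ± 0.09 (adjusted p = 0.10). Slc6a11 had 0.14 ± 0.15 on prefrontal arrays in that fit (limma adjusted p = 0.52). The part of the array median in these differences was not tested beyond the median centring.

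Genes outside the list that were most alike in pattern were ranked by Pearson's r over the same 20 centred arrays. For the mean of Gad1, Gad2 and Slc32a1 they were Exoc2 (0.82), Pcp4l1 (0.82), Irs1 (0.81), Nrip3 (0.79) and Pkdcc (0.75) in the prefrontal cortex, and Fubp3 (0.82), Dennd5b (0.81), Rsrc1 (0.80), Ddx51 (0.79) and Polh (0.79) in the hippocampus. For Slc6a11 they were Gabra3 (0.89), Pip5k1a (0.88), Eml2 (0.87), Rab5c (0.87) and Nceh1 (0.86) in the prefrontal cortex, and G6pc3 (0.91), Pdcd6ip (0.91), Mapt (0.90), Slc22a23 (0.89) and Scamp3 (0.89) in the hippocampus. These are the highest values over all genes of a region and carry no test. The prefrontal Slc6a11 ranking includes the low wild-type replicates 5 and 7 and was not repeated without them.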

How the data were processed

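Expression was measured on 40 arrays, 10 for each genotype and region. The deposited values are log2 signals from GCRMA, per the submitters' processing notes, and no label or record gives its version, its settings or which arrays it was run on together. Hybridization run (a gap of over 60 minutes) and chip lot came from the deposited array records. The members and gene lists were chosen with earlier results of these data known.

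A limma model (version 3.58.1, R 4.3.3, moderated, two-sided, no covariate) was fitted to each region, over probe sets above 4 on at least 10 arrays, with Benjamini-Hochberg adjustment at 0.05. The interaction used all 40 arrays. Where 1 probe set per gene was needed, it was that with the highest mean. Correlations used 100000 permutations. The fit was tested on simulated data with independent noise and no run or lot effects, so that test does not bear on them. The labels call the arrays biological replicates, and their number limits the precision. Named genes were all members, called pathway genes, the 2 with the smallest p of each pathway group, and the 5 most alike in pattern.

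Alternatives were other filters, scalings, weights and variance models, replicate number, run and lot as blocks, single runs or lots, an actin covariate, other probe-set choices, and leaving out each array. The fit without 2 wild-type prefrontal arrays was added after the data were seen. Promoter sequences came from RefSeq (GRCm38.p6). Of the probe sets, 34945 matched 1 gene, 932 several and 9160 none, and 64 were controls. No level is set against another probe set's. Some genes of the lists are not reported here.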

Additional observations from a re-analysis of the deposited data

Results flagged for a closer look

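Dixon's test was run on 52 groups of 10 arrays (13 probe sets in 4 groups), and 5 groups held an array far from the other 9. Chance flags about 1 in 20 groups. Replicate 1 of the Df(16)A/+ hippocampal arrays was the lowest of its group for Gad2 1421978_at (7.54), for Gabbr1 1422051_a_at (9.71) and for Slc6a11 1433989_at (7.88). Without it the Gad2 difference was 0.67, the Gabbr1 difference 0.39 and the Slc6a11 difference 0.18 (limma adjusted p = 0.00031, 0.00026 and 0.11). This array was 1 of the 2 Df(16)A/+ arrays in run 2, the only hippocampal run with both genotypes. Replicate 3 of the Df(16)A/+ hippocampal arrays was the highest of its group for Gphn 1426462_at, at 10.61. Replicate 2 of the wild-type hippocampal arrays was the lowest of its group for Slc6a11 1433989_at, at 8.22. No explanation was tested for any of them.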

How the results depend on the processing

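The count of called members in the prefrontal cortex was 4 as reported. It was 2 with no filter or with median centring, 1 with the replicate number as a block, 1 without wild-type replicates 5 and 7 (chosen after seeing the data), and 0 with the run, the lot or both as blocks and within run 3, run 4 or lot 1. In the hippocampus it was 3 as reported, 2 with the actin 3' minus 5' difference as a covariate (Gabbr1 1422051_a_at 0.28, limma adjusted p = 0.10), 1 with the lot block or within lot 1, and 0 with the run block, both blocks or within run 2. Leaving out each array in turn gave 1 to 4 prefrontal and 2 to 4 hippocampal calls. Gabbr1 1422051_a_at in the prefrontal cortex and Gad2 1421978_at and Gphn 1426463_at in the hippocampus were called in 20 of 20 such fits. Gad1 1416561_at and Gphn 1430038_at (prefrontal) were called in 10, Gad1 1416562_at (prefrontal) in 6 and Gabbr1 1422051_a_at (hippocampal) in 6. Gabbr1 1422051_a_at in the hippocampus was -0.07 with the run block, with both blocks and within run 2, and the cause was not tested. The interaction count of 0 became 1 with median centring (Gphn 1426463_at, limma adjusted p = 0.041), and 0 to 1 on leaving out an array, with 1 without Df(16)A/+ prefrontal replicate 6 or without Df(16)A/+ hippocampal replicate 1 or 2. The pathway genes called in the prefrontal cortex were 3 as reported, 1 with all 40 arrays in 1 fit, 8 with the mean of a gene's probe sets, 0 with the lot or both blocks and within run 3, run 4 or lot 1, and 3 to 6 without 1 array. In the hippocampus they were 1 as reported, 3 with array weights, 4 with all 40 arrays in 1 fit or with the mean of probe sets, 0 with run, lot or both blocks and within run 2 or lot 1, and 1 to 4 without 1 array. The hippocampal pairs that moved together were 6 as reported, 3 by Spearman's rho and 2 without the 2 arrays farthest for 1 gene of a pair. Under settings other than leaving out arrays, uncalled members stayed uncalled in 135 of 135 prefrontal refits, 14 with the other sign, and in 137 of 140 hippocampal refits, 20 with the other sign, and were called in 3. Hippocampal Gad1 1416562_at was called in 3 of 20 fits without 1 array. Same-numbered arrays had correlations above 0.1 in 2 of 10 prefrontal and 4 of 10 hippocampal pairs, and were not compared with differently numbered ones. Whether the samples are paired by the replicate number was therefore not tested. With it as a block the hippocampal count was 3. Probe sets below the filter were left out of the reported test, which limits Slc32a1, Slc6a11 and Abat to 1 tested probe set each.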
